A study of Mus musculus with 2 samples.

Results

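Plasmacytoid dendritic cells (pDC) were described among the live CD45-positive leukocytes of mouse liver tumours. They were chosen cell by cell from their counts of unique molecular identifiers (UMIs, 1 per captured RNA molecule): at least 2 UMIs of Siglech, a UMI of at least 1 of Ccr9, Klk1, Cox6a2 and Ly6d, at most 2 UMIs of Lyz2, and none of Cd3d, Cd3e and Cd3g. A barcode was kept with at least 200 detected genes and mitochondrial genes holding no more than 10% of its UMIs. The rule found 43 pDC among 10014 kept barcodes after anti-PD-1 and 60 among 9566 after isotype antibody, 103 of 19580 in all.

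The tumours were orthotopic Hepa1-6 tumours, grown in the liver of C57/BL6 mice (genotype WT) from a mouse hepatoma line. One group received anti-PD-1, an antibody against the PD-1 checkpoint receptor of activated lymphocytes, and the other isotype antibody, called IgG in the study's design text. Both groups carry the same tumour, and the labels used here state no age, dose or number of mice. Each group is 1 single-cell RNA-seq library of cells enriched on CD45 beads and sorted as 7-AAD negative and CD45 positive, so no value below is a test between the antibodies, and every interval covers counting error alone, at 95%.

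Plasmacytoid dendritic cells are the immune cells best known for fast and copious release of type I interferon when endosomal Tlr7 meets single-stranded RNA or Tlr9 meets unmethylated CpG DNA. Their identity rests on the E protein Tcf4, working with factors such as Irf8, Spib, Runx2 and Bcl11a, while Id2, which blocks E proteins, steers precursors to conventional dendritic cells (cDC). In tumours they are often described as weak interferon producers that can either prime or restrain T cells.

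The pDC held 392158 UMIs after anti-PD-1 and 482849 after isotype. A cell had a median of 8737 UMIs (2798 to 20554) and 2799 genes after anti-PD-1, against 7783.5 UMIs (3988 to 15321) and 2553.5 genes after isotype, while the other kept cells had medians of 6379 and 6231 UMIs. A count of 0 allows up to 3 UMIs, which is 7.65 UMIs per 1000000 UMIs summed over the cells (CPM) in the anti-PD-1 pDC and 6.21 CPM in the isotype pDC. The 2 libraries shared 140 barcodes, and 1 pDC of the anti-PD-1 library carried a barcode that also occurs in the isotype library. Doublet scores above 0.25 were found in 0 anti-PD-1 and 2 isotype pDC.

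The rule cut through few cells. At the lower limit of 2 Siglech UMIs lay 1 anti-PD-1 and 2 isotype members, while the member medians were 14 and 15 UMIs. Just outside, 3 cells of each library met the rest of the rule with 1 Siglech UMI, and their median Tcf4 counts were 4 and 3 UMIs, against 8 and 7 UMIs in the members. Another 3 cells of each library had Siglech but none of the 4 further markers. Of the members, 22 anti-PD-1 and 33 isotype cells had all 4 of those markers, and 5 and 2 cells had only 1. The 5 anti-PD-1 cells with only 1 of them had a median of 0 Irf8 UMIs, against 15 in all anti-PD-1 members, and Irf8 was at 0 in 5 anti-PD-1 and 1 isotype members.

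The share of pDC was 0.429% of kept cells after anti-PD-1 (exact binomial interval 0.311 to 0.578) and 0.627% after isotype (0.479 to 0.807). The difference was -0.198 percentage points, with a Newcombe interval of -0.408 to 0.00595, so it lay at the edge of what counting error allows. Against cells gated as cDC1, the cross-presenting dendritic cells, pDC made up 52.4% of the pair after anti-PD-1 and 65.9% after isotype, a difference of -13.5 points (-27.4 to 1.12). Against cDC2, the dendritic cells that favour CD4 T cells, the shares were 27.2% and 28.6%. The cDC2 share of kept cells differed in the same direction, with 1.15% after anti-PD-1 and 1.57% after isotype (difference -0.420 points, -0.750 to -0.0955). The CD45 enrichment and sort set the mixture of cells that was loaded, and their part in these shares was not tested.

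The gated cells carried the wider pDC programme. Of the list of surface and cytoplasmic pDC genes, 26 of 28 measured were at least 2-fold above all other kept cells in both libraries, and so were 10 of 14 measured pDC transcription factors, while 20.2% of all 4047 genes with at least 30 UMIs in the pDC reached that difference. The median log2 ratio of pDC over other cells was 3.66 after anti-PD-1 and 3.75 after isotype for the surface list, and 2.75 and 2.90 for the factors. Since the cells were gated on their RNA, these values describe the gate and are no test.

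Siglech itself (chr7:55768178-55778925), a sialic acid-binding lectin that signals through the adaptor Tyrobp, had 1606 CPM in anti-PD-1 pDC and 1862 CPM in isotype pDC. Per cell, the lowest, median and highest were 185, 1486 and 4326 CPM after anti-PD-1 and 309.6, 1870.2 and 4514 CPM after isotype. Bst2, the tetherin that holds budding viruses on the cell surface and carries the pDC antigen PDCA-1, had 3221 CPM in anti-PD-1 pDC and 3782 CPM in isotype pDC. T cells held 162 and 152 CPM of Bst2 and macrophages 254 and 205 CPM in the anti-PD-1 and isotype libraries, far below pDC. Ly6c2, the Ly6C antigen shared with monocytes, had 2591 CPM in anti-PD-1 pDC and 2690.3 CPM in isotype pDC.

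Tcf4, the E protein that keeps pDC identity, had 841 CPM in anti-PD-1 pDC and 882 CPM in isotype pDC, at log2 ratios over the other cells of 4.70 after anti-PD-1 and 4.72 after isotype. The median anti-PD-1 cell had 862 CPM (0 to 1648) and the median isotype cell 869.9 CPM (0 to 1831). A UMI of Tcf4 was found in 42 of 43 anti-PD-1 and 59 of 60 isotype pDC, while 7.01% and 4.25% of the gated T cells had one at median depths of 7369 and 6218 UMIs. Irf8 had 1701 CPM in anti-PD-1 pDC and 1806 CPM in isotype pDC, near the level in cDC1, which need it too and held 1391 and 1303 CPM. Spib, an Ets factor shared with B cells, had 209 CPM in anti-PD-1 pDC and 232 CPM in isotype pDC, against 139 and 79.5 CPM in B cells and no UMI in cDC1 or T cells.

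Runx2, which governs the exit of pDC from bone marrow, had 385 CPM in anti-PD-1 pDC and 389 CPM in isotype pDC, and Bcl11a, which acts with Tcf4, had 239.7 CPM in anti-PD-1 pDC and 213 CPM in isotype pDC. Mef2c, shared with B cells, had 548 CPM in anti-PD-1 pDC and 607 CPM in isotype pDC. Id2, the inhibitor of E proteins, ran the other way. It had 35.7 CPM in anti-PD-1 pDC and 18.6 CPM in isotype pDC, against 646 and 468 CPM in cDC1 and 629 and 718 CPM in T cells, and was seen in 4 of 43 anti-PD-1 and 6 of 60 isotype pDC, with 11 of its 14 anti-PD-1 UMIs in 1 cell.

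**Figure D1:**
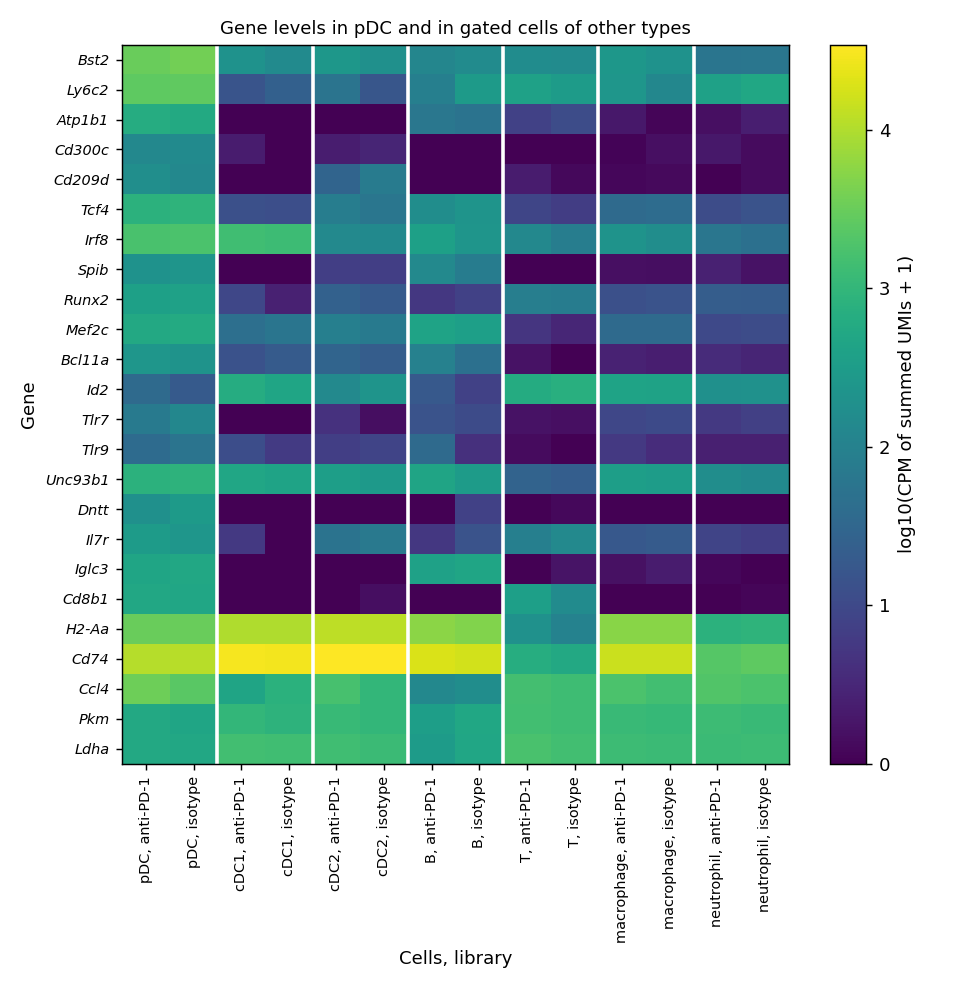
Heat map of 24 genes (rows) in pDC and in 6 gated cell types, each with its anti-PD-1 column left of its isotype column, as log10 of CPM + 1. Bst2, Tcf4, Spib and Runx2 are bright in both pDC columns, Irf8 is shared with cDC1, and Id2, H2-Aa, Cd74 and Ldha are brighter in cDC than in pDC.

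In all, 164 genes (4.05%) were at least 8-fold above the other cells in both libraries. The genes with the largest ratios of pDC over other cells, taken by the smaller of the 2 libraries, mixed markers of the rule with genes of muscle, nerve and lymphoid cells. Beside the 5 rule markers, the leading 20 held Atp2a1, a calcium pump of fast skeletal muscle, at 133 CPM in anti-PD-1 pDC and 172 CPM in isotype pDC, and Sh3bgr, a small protein first described in heart and skeletal muscle, at 122 CPM in anti-PD-1 pDC and 151 CPM in isotype pDC. Cox6a2, the heart and muscle form of a cytochrome c oxidase subunit, had 1252 CPM in anti-PD-1 pDC and 1866 CPM in isotype pDC and is one of the rule markers. Cacna1e, a voltage-gated calcium channel of neurons, had 71.4 CPM in anti-PD-1 pDC and 91.1 CPM in isotype pDC, and Atp1b1, the beta subunit of the sodium pump, 658 CPM in anti-PD-1 pDC and 578 CPM in isotype pDC. Cdh5, the cadherin of endothelial junctions, had 40.8 CPM in anti-PD-1 pDC and 55.9 CPM in isotype pDC. Of 9 endothelial and stromal markers, 5 had no UMI in any pDC (Stab2, Col1a2, Col3a1, Dcn and Acta2). The 2 measured ones were at least 2-fold above the other cells in both libraries. Their median log2 ratio over the other cells was 4.98 after anti-PD-1 and 4.72 after isotype. All 9 summed to 161 CPM in anti-PD-1 pDC and 130.5 CPM in isotype pDC, above the sum in the other cells of each library.

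The remaining leading genes were Ptprf, a receptor phosphatase, Paqr5, a membrane progestin receptor, Cd300c, a receptor of the CD300 family, Pdzd4, Iglc3, Dntt and the gene models Gm21762, Gm13919, Gm14207 and D13Ertd608e. Ptprf had 11 UMIs in anti-PD-1 pDC and 33 in isotype pDC, which is 28 and 68.3 CPM. Paqr5 had 163 CPM in anti-PD-1 pDC and 128 CPM in isotype pDC, and Cd300c 133 CPM in anti-PD-1 pDC and 145 CPM in isotype pDC. Gm21762 had 201 CPM in anti-PD-1 pDC and 389 CPM in isotype pDC.

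Lymphoid genes were a second layer of the programme, a known trait of pDC, which share precursors with B cells. Of 15 measured lymphoid-lineage genes, 13 were at least 2-fold above the other cells in both libraries, against 20.2% of all 4047 genes. Ly6d, a marker of the rule, is on this list, so its level was set in part by the choice of cells. Dntt, the polymerase that adds bases to antigen-receptor joints, had 186 CPM in anti-PD-1 pDC and 292 CPM in isotype pDC, and no cDC1, cDC2, macrophage or neutrophil of the gates had a UMI of it. Rag1 and Rag2, the recombinase that makes those joints, had no UMI in any pDC. Pax5, which defines B cells, was also at 0, and Cd79a had 1 UMI in anti-PD-1 pDC and 0 in isotype pDC.

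Iglc3, a lambda light chain constant gene, had 469 CPM in anti-PD-1 pDC and 522 CPM in isotype pDC, close to 394 and 474 CPM in the gated B cells. Iglc2 and Iglc3 are near-identical, so the split of reads between them is uncertain. Il7r, the receptor of interleukin 7, had 303 CPM in anti-PD-1 pDC and 238 CPM in isotype pDC. Cd8b1, the beta chain of the CD8 coreceptor, had 535 CPM in anti-PD-1 pDC and 487 CPM in isotype pDC and was seen in 25 of 43 anti-PD-1 and 33 of 60 isotype pDC. The gated macrophages, at median depths of 8318 and 9525 UMIs, had no UMI of Cd8b1 in either library, and T cells held 368 and 156 CPM. Cd7, a surface protein of lymphocytes, had 1038 CPM in anti-PD-1 pDC and 1039.7 CPM in isotype pDC. Il12a, the p35 chain of interleukin 12, had 105 CPM in anti-PD-1 pDC and 99.4 CPM in isotype pDC, against 31.3 and 26.5 CPM in B cells and none in either cDC gate.

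For viral nucleic acid sensing, 7 of 19 measured genes were at least 2-fold above the other cells in both libraries, against 20.2% of all 4047 genes. Tlr7 had 71.4 CPM in anti-PD-1 pDC and 124 CPM in isotype pDC, in 19 of 43 anti-PD-1 and 37 of 60 isotype pDC, while 0.701% and 0.405% of the T cells had a UMI. Tlr9 had 38.2 CPM in anti-PD-1 pDC and 53.8 CPM in isotype pDC, in 12 of 43 anti-PD-1 and 20 of 60 isotype pDC. Unc93b1, which carries both receptors to endosomes, had 839 CPM in anti-PD-1 pDC and 853 CPM in isotype pDC and a UMI in every pDC. Slc15a4, an endosomal transporter that pDC need for this response, had 153 CPM in anti-PD-1 pDC and 122 CPM in isotype pDC, and Irf7, the factor that turns on interferon genes, 280.5 CPM in anti-PD-1 pDC and 217 CPM in isotype pDC.

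Class II antigen presentation was present below the level of cDC. The median log2 ratio of the 11 measured class II pathway genes was -1.42 after anti-PD-1 and -1.39 after isotype over cDC1, and -1.68 and -1.60 over cDC2, with 6 of 11 at least 2-fold lower in both libraries against each. Of all 4047 genes, 2.69% were that much lower than in cDC1 and 3.61% than in cDC2. H2-Aa, the class II alpha chain, had 3179.8 CPM in anti-PD-1 pDC and 3121 CPM in isotype pDC, against 9813 and 9985 CPM in cDC1 and 11987 and 11948 CPM in cDC2. The cDC2 gate required H2-Aa, so its difference from cDC2 is set in part by the gate, while the cDC1 gate did not use it. It was absent from 9 anti-PD-1 and 9 isotype pDC. Cd74, the invariant chain, had 10646 CPM in anti-PD-1 pDC and 11053 CPM in isotype pDC, against 29717 and 29059 CPM in cDC1.

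Glycolytic and hypoxia genes were low. Of 18 measured, 12 were at least 2-fold below the other cells in both libraries (4.13% of all genes were), and the list's median log2 ratio was -1.39 after anti-PD-1 and -1.51 after isotype. Ldha, lactate dehydrogenase A, had 546 CPM in anti-PD-1 pDC and 519.8 CPM in isotype pDC, against 1275 and 1244 CPM in macrophages and 1731 and 1488 CPM in T cells. Eno1, the enolase of glycolysis, had 369.7 CPM in anti-PD-1 pDC and 336 CPM in isotype pDC, at log2 ratios over other cells of -2.005 and -2.17. B cells were closer, with 313 and 490.3 CPM of Ldha.

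Between the antibodies, most pDC genes lay within 1.5-fold. Each log2 ratio below is the CPM of anti-PD-1 pDC over that of isotype pDC, with the exact counting interval of the summed UMIs. Among the 4047 genes measured, 451 (11.1%) were past 1.5-fold higher and 248 (6.13%) past 1.5-fold lower in the anti-PD-1 pDC, and 2329 (57.5%) were higher at any size. The median log2 ratio of anti-PD-1 over isotype was 0.07 in pDC and 0.09 for the same genes in the other cells. Of the 699 genes past 1.5-fold in pDC, 69.7% had the same direction in the other cells of the 2 libraries. These counts describe 2 libraries, and low counts alone put many genes past the fold. The counts given for each list below are to be read beside these shares over all genes.

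Identity lists lay on the low side of the median gene. Of the 5 rule markers, 0 were higher and all 5 lower in the anti-PD-1 pDC, 4 of them with an interval below 0. Since these genes chose the cells, this is a description. Ly6d, a GPI-anchored protein of lymphoid progenitors and pDC (chr15:74762056-74763620), had 664 UMIs in anti-PD-1 pDC and 1373 in isotype pDC, or 1693 and 2844 CPM (log2 ratio -0.75, -0.88 to -0.61). Single cells spanned 0 to 6904 CPM (median 1207) after anti-PD-1 and 0 to 20588 CPM (median 2135) after isotype. Ly6d was at 0 in 9 of 43 anti-PD-1 and 5 of 60 isotype cells, and the cells of the libraries overlapped.

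Gated B cells ran the other way for Ly6d, with 1428 and 815 CPM (log2 ratio 0.81). Cox6a2 had 1252 CPM in anti-PD-1 pDC and 1866 CPM in isotype pDC (log2 ratio -0.58, -0.74 to -0.42). Per cell, the lowest, median and highest were 0, 988 and 4289 CPM after anti-PD-1 and 0, 1898 and 6413 CPM after isotype. Ccr9, the gut-homing receptor for Ccl25, had 660.4 CPM in anti-PD-1 pDC and 851 CPM in isotype pDC (log2 ratio -0.37, -0.60 to -0.14). Siglech had a log2 ratio of -0.21 (-0.36 to -0.06) and Klk1, a kallikrein protease, of -0.07 (-0.28 to 0.14). Without the members that lack Irf8, the log2 ratio was -0.58 for Ly6d, -0.42 for Cox6a2 and -0.25 for Ccr9. It was then -0.08 (-0.23 to 0.07) for Siglech and 0.10 (-0.11 to 0.31) for Klk1.

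In the list of pDC surface and cytoplasmic genes, 11 of 28 measured genes were higher and 17 lower after anti-PD-1, 1 and 0 of them past 1.5-fold, and the median log2 ratio was -0.07 in pDC and 0.16 in the other cells. Tsc22d1, a leucine zipper protein, had 852 CPM in anti-PD-1 pDC and 1127 CPM in isotype pDC (log2 ratio -0.40, -0.60 to -0.20), and Bst2 had a log2 ratio of -0.23 in pDC, against 0.25 in the other cells. Itgb7, the integrin beta chain of gut homing, was the gene past the fold, with 247 CPM in anti-PD-1 pDC and 128 CPM in isotype pDC (log2 ratio 0.95, 0.47 to 1.43). It was seen in 37 of 43 anti-PD-1 and 36 of 60 isotype pDC.

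In the list of pDC transcription factors, 5 of 14 measured genes were higher and 9 lower after anti-PD-1, 2 and 1 of them past 1.5-fold, and the median log2 ratio was -0.02 in pDC and 0.06 in the other cells. Tcf4, Irf8, Runx2 and Spib had log2 ratios of -0.07, -0.09, -0.02 and -0.15. Zeb2, a repressor that acts against Id2, had 303 CPM in anti-PD-1 pDC and 184 CPM in isotype pDC (log2 ratio 0.72, 0.31 to 1.13). Spi1, the myeloid factor PU.1, had 209 CPM in anti-PD-1 pDC and 118 CPM in isotype pDC (log2 ratio 0.82, 0.32 to 1.34), and a log2 ratio of 0.47 without the members that lack Irf8. Ets1, a lymphoid factor, was lower, with 53.5 CPM in anti-PD-1 pDC and 114 CPM in isotype pDC (log2 ratio -1.09, -1.89 to -0.34).

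In the list of cDC regulators, 7 of 8 measured genes were higher and 1 lower after anti-PD-1, 3 and 0 of them past 1.5-fold, and the median log2 ratio was 0.47 in pDC and 0.14 in the other cells. Over all 4047 genes, 57.5% were higher and 11.1% past 1.5-fold higher. Relb, the NF-kB subunit of mature dendritic cells, had 27 UMIs in anti-PD-1 pDC and 15 in isotype pDC (log2 ratio 1.15, 0.19 to 2.16). Rel, another subunit, had 258 CPM in anti-PD-1 pDC and 169.8 CPM in isotype pDC (log2 ratio 0.60, 0.17 to 1.04). The ratios became 1.25 for Relb and 0.32 (-0.17 to 0.80) for Rel without the members that lack Irf8. Irf4 was the 1 lower gene, with 96.9 CPM in anti-PD-1 pDC and 141 CPM in isotype pDC (log2 ratio -0.54, -1.15 to 0.05; -1.23 without the members that lack Irf8), and it was lower in cDC2 as well (log2 ratio -0.56). Flt3, the receptor for the growth factor of dendritic cells, had 219 CPM in anti-PD-1 pDC and 164 CPM in isotype pDC (log2 ratio 0.42, -0.04 to 0.88).

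**Figure D2:**
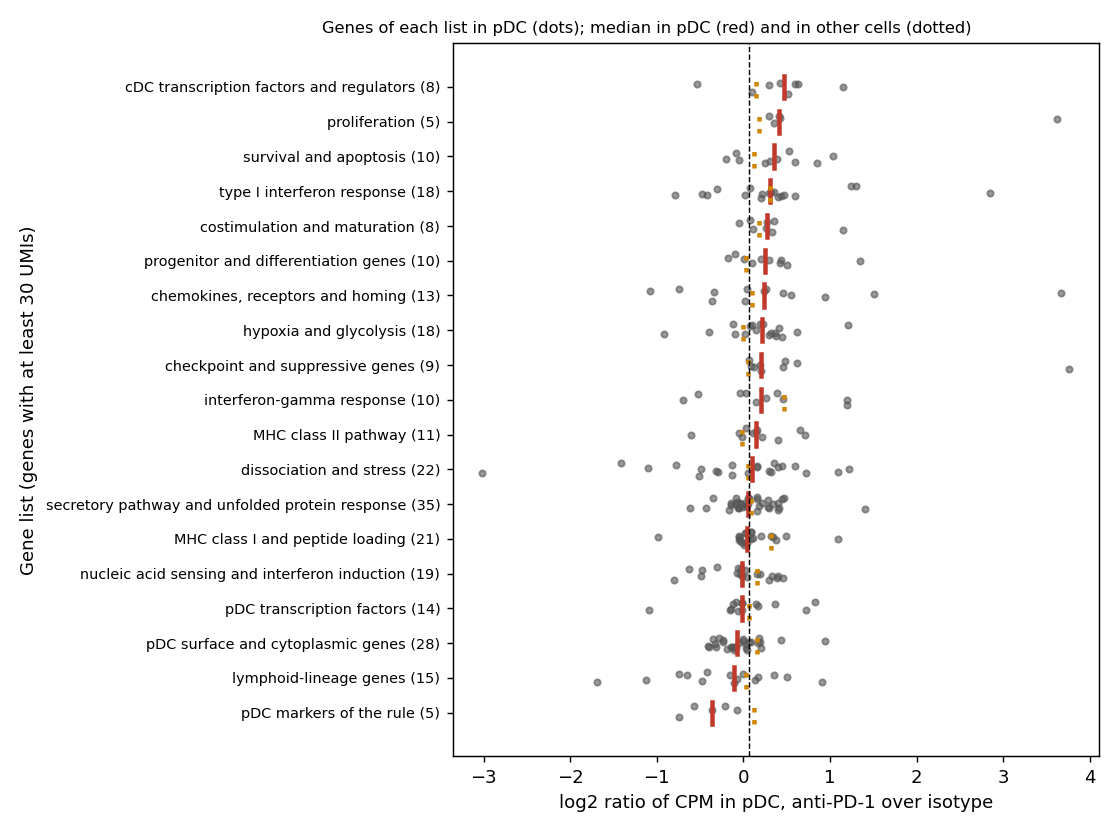
Genes of 19 lists (dots, number of measured genes in brackets) by log2 ratio of CPM in pDC, anti-PD-1 over isotype, with the list's median in pDC (red line), its median in all other kept cells (dotted line) and the median of all measured pDC genes (dashed line, 0.07). The cDC regulators lie highest with a median of 0.47 and the rule markers lowest with -0.37, while single genes of most lists scatter far wider than the medians.

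Genes with a UMI in at least 50% of the pDC of a library were looked at apart, by a rule added after the values were seen, and the 10 on each side whose interval lay farthest from 0 are plotted. A gene could pass through the library in which it is high, so the count that passed is no result. Of the 20 plotted, 14 were detected in at least 50% of the cells in both libraries, and the other 6 were Ehd1, Nfkb2, Kdm2b, Ppp2cb, Lamtor5 and Commd3. Atf3, a stress-induced transcription factor, had 266 UMIs in anti-PD-1 pDC and 154 in isotype pDC, or 678 and 319 CPM (log2 ratio 1.09, 0.80 to 1.38), in 33 of 43 anti-PD-1 and 33 of 60 isotype pDC. The median anti-PD-1 cell had 298 CPM (0 to 3568) and the median isotype cell 126 CPM (0 to 1724). The anti-PD-1 cells were higher at the median, and the ranges overlapped.

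Outside the pDC, Atf3 had a log2 ratio of 0.03 in all other cells, -0.19 in cDC1, -0.04 in cDC2, -0.002 in macrophages and 0.34 in neutrophils. Its level in isotype pDC, 319 CPM, was below that of both cDC gates, which held 695 and 792 CPM in cDC1 and 823 and 846 CPM in cDC2. Anti-PD-1 pDC, at 678 CPM, were near the cDC1.

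Nr4a1, the nuclear receptor Nur77 induced within minutes of receptor signals (chr15:101254269-101274795), had 219 UMIs in anti-PD-1 pDC and 116 in isotype pDC, or 558 and 240.2 CPM (log2 ratio 1.22, 0.89 to 1.55). Single cells spanned 0 to 3115 CPM (median 314) after anti-PD-1 and 0 to 906 CPM (median 149) after isotype. The highest anti-PD-1 cells lay above every isotype cell, while the lower part of the ranges overlapped. The 5 anti-PD-1 members without Irf8 held 71 of the anti-PD-1 UMIs, and without the members that lack Irf8 the log2 ratio of Nr4a1 was 0.82. The other cells had a log2 ratio of 0.23, and B cells 0.77.

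Vim, the intermediate filament vimentin, had 800 UMIs in anti-PD-1 pDC and 551 in isotype pDC, or 2040.0 and 1141 CPM (log2 ratio 0.84, 0.68 to 0.997), against 0.12 in the other cells. Per cell, the lowest, median and highest were 0, 1114 and 8986 CPM after anti-PD-1 and 0, 479 and 6602 CPM after isotype. Pmaip1, the BH3-only protein NOXA that opposes Mcl1, had 474 CPM in anti-PD-1 pDC and 232 CPM in isotype pDC (log2 ratio 1.03, 0.69 to 1.38), against 0.01 in the other cells. Ehd1, an ATPase of endocytic recycling, had 39 UMIs in anti-PD-1 pDC and 15 in isotype pDC (log2 ratio 1.68, 0.79 to 2.64), in 22 of 43 anti-PD-1 and 11 of 60 isotype pDC. Nfkb2, the p100 subunit of the alternative NF-kB pathway, had 34 UMIs in anti-PD-1 pDC and 14 in isotype pDC (log2 ratio 1.58, 0.64 to 2.59), in 22 of 43 anti-PD-1 and 13 of 60 isotype pDC. Without the members that lack Irf8, the log2 ratio of Vim was 0.54, with 254 of its anti-PD-1 UMIs in those 5 cells.

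Wdr1, a cofactor of actin disassembly, had 237 CPM in anti-PD-1 pDC and 95.3 CPM in isotype pDC (log2 ratio 1.32, 0.79 to 1.86), and Kdm2b, a histone demethylase, 89.2 CPM in anti-PD-1 pDC and 35.2 CPM in isotype pDC (log2 ratio 1.34, 0.47 to 2.27), the last in 24 of 43 anti-PD-1 and 12 of 60 isotype pDC. For Pmepa1, an inhibitor of TGF-beta signalling, and Ppp2cb, a catalytic subunit of phosphatase 2A, the ratio was high in the other cells too. Pmepa1 had log2 ratios of 1.19 in pDC and 0.93 in the other cells. Ppp2cb had 1.38 in pDC, where it was seen in 24 of 43 anti-PD-1 and 19 of 60 isotype pDC, and 0.91 in the other cells.

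**Figure D3:**
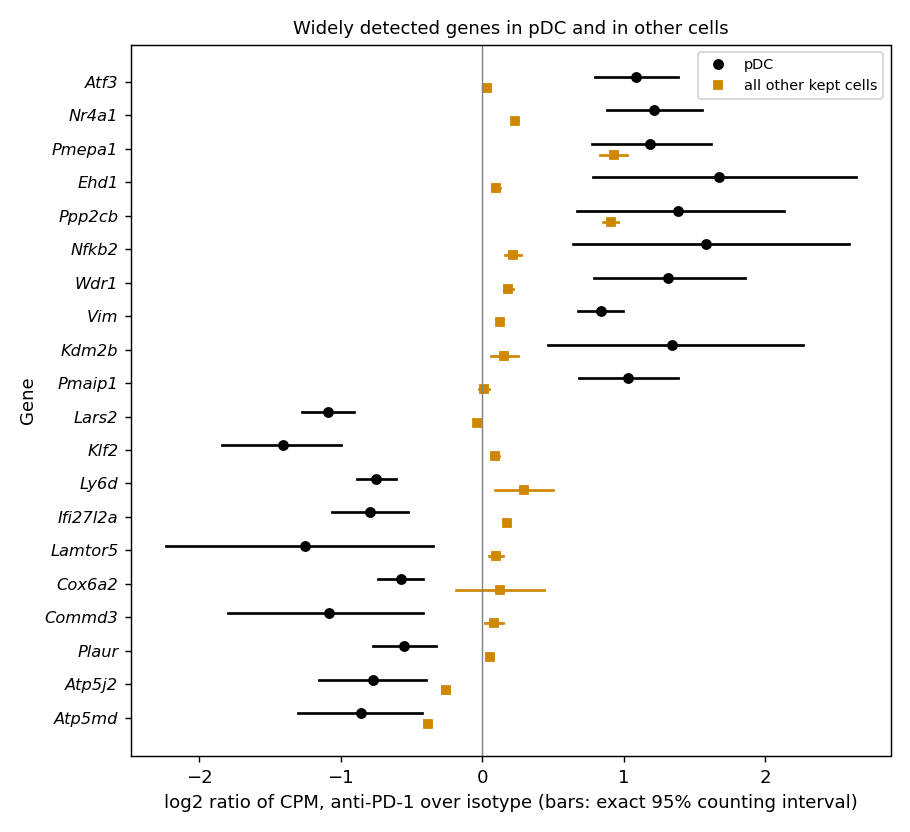
Log2 ratio of CPM, anti-PD-1 over isotype, of 20 widely detected genes in pDC (black circles) and in all other kept cells (orange squares), with bars for the exact 95% counting interval. Atf3, Nr4a1, Vim and Pmaip1 lie right of 0 in pDC and near 0 in the other cells, while Pmepa1 and Ppp2cb lie right of 0 in both.

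Lower in the anti-PD-1 pDC was Klf2, a factor of quiescence and of trafficking receptors, with 63 UMIs in anti-PD-1 pDC and 206 in isotype pDC, or 161 and 427 CPM (log2 ratio -1.41, -1.84 to -0.995). One isotype cell held 67 of the isotype UMIs of Klf2. Without the top cell of each library the log2 ratio was -1.09, and the other cells had 0.09. S1pr4, a sphingosine phosphate receptor, had 15 UMIs in anti-PD-1 pDC and 31 in isotype pDC (log2 ratio -0.75, -1.74 to 0.19).

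Lars2, the mitochondrial leucyl-tRNA synthetase, had 332 UMIs in anti-PD-1 pDC and 871 in isotype pDC, or 847 and 1804 CPM (log2 ratio -1.09, -1.28 to -0.91). The median anti-PD-1 cell had 516 CPM (0 to 8924) and the median isotype cell 873 CPM (0 to 13608). Gm42418, a gene model that overlaps a ribosomal RNA repeat, moved with it, with 8622 CPM in anti-PD-1 pDC and 16709 CPM in isotype pDC (log2 ratio -0.95, -1.01 to -0.90), and 1 isotype cell held 1181 of its 8068 isotype UMIs. AY036118, a model of the same kind, had a log2 ratio of -0.40. The part of ribosomal RNA fragments in the Lars2 difference was not tested.

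Further genes showed lower levels after anti-PD-1 with smaller counts or ratios. Atp5j2 and Atp5md, subunits of ATP synthase, had log2 ratios of -0.77 and -0.86 in pDC and -0.26 and -0.38 in the other cells. Lamtor5, a part of the lysosomal Ragulator, had 14 UMIs in anti-PD-1 pDC and 41 in isotype pDC (log2 ratio -1.25, -2.24 to -0.35), in 11 of 43 anti-PD-1 and 31 of 60 isotype pDC, and Commd3, an endosomal sorting protein, 26 UMIs in anti-PD-1 pDC and 68 in isotype pDC (log2 ratio -1.09, -1.80 to -0.42), in 21 of 43 anti-PD-1 and 38 of 60 isotype pDC. Plaur, the urokinase receptor, had 658 CPM in anti-PD-1 pDC and 963 CPM in isotype pDC (log2 ratio -0.55, -0.77 to -0.33). Ribosomal protein genes were lower after anti-PD-1 for 68 of 87 in the pDC (median log2 ratio -0.08), and for 68 of 87 in the other cells (median -0.11).

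**Figure D4:**
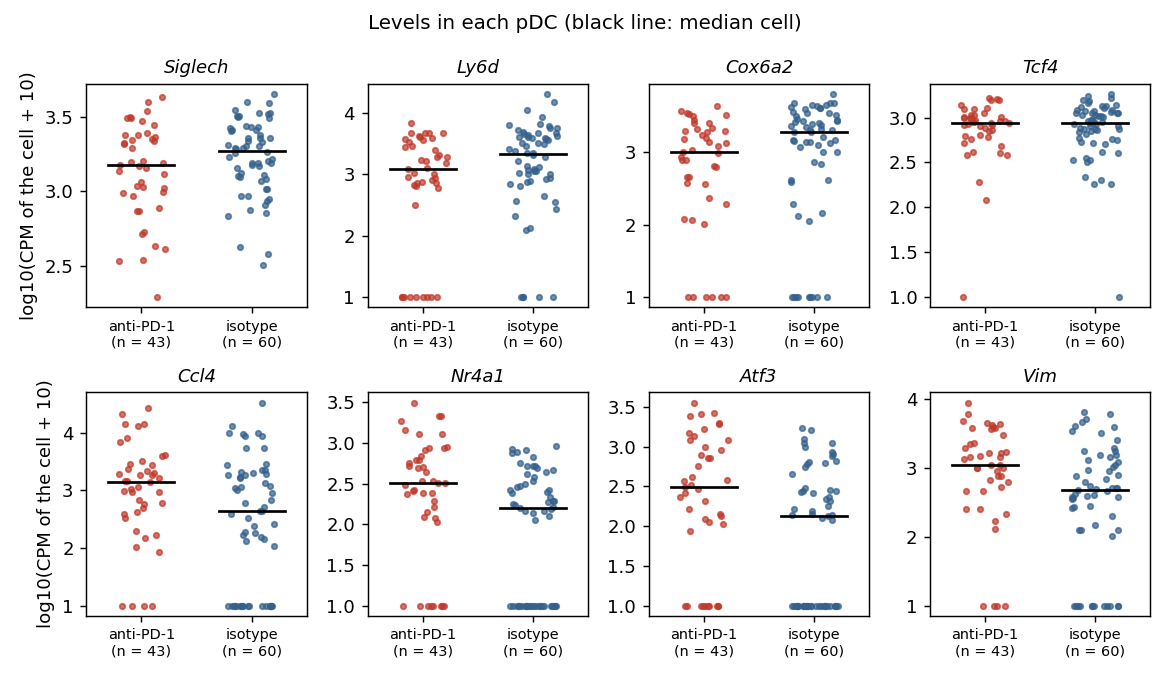
Levels of 8 genes in each pDC as log10 of the cell's CPM + 10, for 43 anti-PD-1 cells (left, red) and 60 isotype cells (right, blue), with a black line at the median cell. The medians of Atf3, Nr4a1, Vim and Ccl4 are higher and those of Ly6d and Cox6a2 lower in the anti-PD-1 cells, and the cells of the 2 libraries overlap in every panel.

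Few interferon transcripts were counted. Of 21 interferon genes, 16 had no UMI in any pDC, and Ifna1 and Ifnb1 had 2 UMIs each in anti-PD-1 pDC and none in isotype pDC. Ifna2 had 0 UMIs in anti-PD-1 pDC and 2 in isotype pDC, and Ifna6 had 0 and 1. Ifna genes are near-identical, so their assignment is uncertain. Ifnl2, an interferon lambda, was the only interferon gene measured, with 29 UMIs in 1 anti-PD-1 cell and 2 UMIs in 1 isotype cell. Ifnl2 and Ifnl3 are near-identical, so the assignment between them is uncertain. The anti-PD-1 cell with Ifnl2 had no Irf8 UMI and 33 of Ccl5.

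Promoter stretches of 4 interferon-stimulated genes are shown because a shared motif marks much of the response list, whose members are described after them. The interferon-stimulated response element, a site through which type I interferon turns on genes, was searched as GAAA, any 2 bases and GAAA again, on both strands (TTTC on the other), from 250 bases before to 50 after the start of each gene (RefSeq, GRCm38.p6), overlaps allowed. It was found in 3.99% of 27025 promoters, in 4.56% of 3244 promoters of genes measured in pDC, and in 57.1% of the 14 promoters matched for the 18 measured genes of the type I interferon list. Capitals below mark the matches, with 20 bases on each side, and each is read 5′ to 3′ on its gene's strand. A match is a string of letters and not a shown binding site.
Isg15, chr4:156200855-156200916, minus strand: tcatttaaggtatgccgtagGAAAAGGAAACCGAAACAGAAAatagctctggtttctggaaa
Rsad2, chr12:26456543-26456592, minus strand: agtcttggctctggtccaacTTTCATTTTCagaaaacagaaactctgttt
Phf11b, chr14:59341351-59341400, minus strand: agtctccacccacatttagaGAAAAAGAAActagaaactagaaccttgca
Stat2, chr10:128270256-128270305, plus strand: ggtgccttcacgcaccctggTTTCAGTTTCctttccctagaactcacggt

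The Isg15 window holds 3 overlapping matches, the first at position -78 from the start, while Rsad2, Phf11b and Stat2 hold 1 each, at -120, -50 and -222. Ifit2, Oasl1, Irf9, Ifi35, Sp100 and Samhd1 hold none in their windows. In the type I interferon list, 14 of 18 measured genes were higher and 4 lower after anti-PD-1, 4 and 1 of them past 1.5-fold, and the median log2 ratio was 0.31 in pDC and 0.31 in the other cells. The 2 medians were equal to 2 decimals, and without the members that lack Irf8 the pDC median was 0.03.

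Isg15, the ubiquitin-like interferon product, had 75 UMIs in anti-PD-1 pDC and 39 in isotype pDC, or 191 and 80.8 CPM (log2 ratio 1.24, 0.67 to 1.84). It was seen in 15 of 43 anti-PD-1 and 11 of 60 isotype pDC, and the 5 anti-PD-1 members without Irf8 held 43 of the anti-PD-1 UMIs. Without the members that lack Irf8, its log2 ratio was 0.19, and without only the top cell of each library 1.27. Rsad2, the antiviral enzyme viperin, had 36 UMIs in anti-PD-1 pDC and 18 in isotype pDC (log2 ratio 1.30, 0.45 to 2.20), from 5 of 43 anti-PD-1 and 4 of 60 isotype pDC. Ifit2, which binds viral RNA, had 35 UMIs in anti-PD-1 pDC and 6 in isotype pDC, from 5 of 43 anti-PD-1 and 2 of 60 isotype pDC. The anti-PD-1 members without Irf8 held 31 of the 35, and without the members that lack Irf8 the log2 ratio of Ifit2 was -0.11, against 2.84 over all members.

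Genes of the list that were spread over more cells varied in direction. Phf11b, a PHD finger gene, had 119.8 CPM in anti-PD-1 pDC and 87 CPM in isotype pDC (log2 ratio 0.46, -0.17 to 1.10), and Sp100, a nuclear body protein, 196 CPM in anti-PD-1 pDC and 130.5 CPM in isotype pDC (log2 ratio 0.59, 0.09 to 1.09). The anti-PD-1 members without Irf8 held 21 UMIs of Sp100. Without the members that lack Irf8, its log2 ratio was 0.30 (-0.24 to 0.84), and that of Phf11b was 0.62 (-0.05 to 1.29). Stat2, which holds the element too, had 71.4 CPM in anti-PD-1 pDC and 95.3 CPM in isotype pDC (log2 ratio -0.42, -1.15 to 0.29). Ly6e, a surface protein that limits coronavirus entry, was even, with 2999 CPM in anti-PD-1 pDC and 2968 CPM in isotype pDC. Ifi27l2a was lower, with 170 UMIs in anti-PD-1 pDC and 362 in isotype pDC, or 433 and 749.7 CPM (log2 ratio -0.79, -1.06 to -0.52), against 0.17 in the other cells.

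The receptor side ran lower over all members. Ifnar1 and Ifnar2, the chains of the type I interferon receptor, had log2 ratios of -0.31 and -0.47 in pDC and 0.21 and 0.03 in the other cells, and Ifnar2 held 520.2 CPM in anti-PD-1 pDC and 723 CPM in isotype pDC (log2 ratio -0.47, -0.73 to -0.22). Without the members that lack Irf8, the log2 ratio was -0.13 (-0.44 to 0.18) for Ifnar1 and -0.34 (-0.60 to -0.09) for Ifnar2. In the sensing list, 9 of 19 measured genes were higher and 10 lower after anti-PD-1, 0 and 2 of them past 1.5-fold, and the median log2 ratio was -0.02 in pDC and 0.16 in the other cells. Tlr7 had 28 UMIs in anti-PD-1 pDC and 60 in isotype pDC (log2 ratio -0.80, -1.50 to -0.13), and Tlr9 15 UMIs in anti-PD-1 pDC and 26 in isotype pDC (log2 ratio -0.49, -1.52 to 0.48). Leaving out the members that lack Irf8 gave -0.68 (-1.39 to -0.002) for Tlr7 and -0.42 for Tlr9. Unc93b1 and Tyrobp, the adaptor for Siglech, had log2 ratios of -0.02 and -0.04.

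For interferon-gamma, the cytokine of activated T cells, 7 of 10 measured genes were higher and 3 lower after anti-PD-1, 2 and 1 of them past 1.5-fold, and the median log2 ratio was 0.20 in pDC and 0.46 in the other cells. The list's pDC median was -0.14 without the members that lack Irf8, for genes still at 30 UMIs. Irf1, an early target, had 311 CPM in anti-PD-1 pDC and 321 CPM in isotype pDC (log2 ratio -0.05, -0.40 to 0.31), while the other cells had a log2 ratio of 0.68. Ifi47, a GTPase of the response, had 38 UMIs in anti-PD-1 pDC and 76 in isotype pDC (log2 ratio -0.70, -1.30 to -0.12), against 0.97 in the other cells. Irgm1, a related GTPase, had 26 UMIs in anti-PD-1 pDC and 14 in isotype pDC (log2 ratio 1.19, 0.20 to 2.24), against 0.84. The log2 ratio of Gbp2, a guanylate-binding protein, was 1.20 over all members and 0.02 without those that lack Irf8. Gbp2 had 28 UMIs in anti-PD-1 pDC and 15 in isotype pDC, with most from 1 cell of each library (17 and 14 UMIs).

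In class I presentation, 15 of 21 measured genes were higher and 6 lower after anti-PD-1, 1 and 1 of them past 1.5-fold, and the median log2 ratio was 0.05 in pDC and 0.32 in the other cells. H2-D1, a classical heavy chain, had 3766 CPM in anti-PD-1 pDC and 3276 CPM in isotype pDC (log2 ratio 0.20, 0.10 to 0.30), and B2m, the light chain, a log2 ratio of -0.04. The immunoproteasome subunits Psmb8 and Psmb9 had log2 ratios of -0.02 and 0.00 in pDC and 0.32 and 0.39 in the other cells. H2-Q6 had 83 UMIs in anti-PD-1 pDC and 48 in isotype pDC (log2 ratio 1.09, 0.56 to 1.63), but its near-identical copy H2-Q7 had a log2 ratio of 0.09, so the split between them is uncertain.

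In the class II pathway, 8 of 11 measured genes were higher and 3 lower after anti-PD-1, 2 and 1 of them past 1.5-fold, and the median log2 ratio was 0.14 in pDC and -0.02 in the other cells. H2-Aa, H2-Eb1 and Cd74 had log2 ratios of 0.03, -0.02 and -0.05. H2-DMb1, of the peptide-exchange factor, had 390.1 CPM in anti-PD-1 pDC and 249 CPM in isotype pDC (log2 ratio 0.65, 0.30 to 1.01), and Lgmn, an endosomal protease, 247 CPM in anti-PD-1 pDC and 151 CPM in isotype pDC (log2 ratio 0.71, 0.26 to 1.17).

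Of costimulation and maturation genes, 7 of 8 measured genes were higher and 1 lower after anti-PD-1, 1 and 0 of them past 1.5-fold, and the median log2 ratio was 0.27 in pDC and 0.18 in the other cells. Cd69, an activation antigen, had 426 CPM in anti-PD-1 pDC and 393 CPM in isotype pDC (log2 ratio 0.11, -0.19 to 0.42), and Nfkbia, the NF-kB inhibitor and target, 1578 CPM in anti-PD-1 pDC and 1257 CPM in isotype pDC (log2 ratio 0.33, 0.16 to 0.49). Cd86 and Cd80, the ligands of CD28, stayed below 30 UMIs, with 17 UMIs in anti-PD-1 pDC and 8 in isotype pDC for Cd86 and 9 UMIs in anti-PD-1 pDC and 2 in isotype pDC for Cd80.

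Among checkpoint and suppressive genes, 9 of 9 measured genes were higher and 0 lower after anti-PD-1, 2 and 0 of them past 1.5-fold, and the median log2 ratio was 0.21 in pDC and 0.05 in the other cells. Cd274, the gene of the ligand PD-L1, had 20 UMIs in anti-PD-1 pDC and 18 in isotype pDC (log2 ratio 0.45, -0.54 to 1.46), at log2 ratios over the other cells of -2.42 and -2.61. Lag3, an inhibitory receptor that pDC carry at rest, had 385 CPM in anti-PD-1 pDC and 362 CPM in isotype pDC (log2 ratio 0.09, -0.24 to 0.41), while the other cells had 0.97. Pdcd1, the target of the antibody, had 2 UMIs in anti-PD-1 pDC and 5 in isotype pDC. Ido1 had at most 1 UMI in a library and Gzmb likewise.

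Chemokine genes varied widely among the pDC. Ccl4, a chemokine that attracts T cells and NK cells, had 1371 UMIs in anti-PD-1 pDC and 1150 in isotype pDC, or 3496 and 2382 CPM (log2 ratio 0.55, 0.44 to 0.67). Single cells spanned 0 to 26883 CPM (median 1394) after anti-PD-1 and 0 to 33218 CPM (median 428) after isotype. It was seen in 39 of 43 anti-PD-1 and 42 of 60 isotype pDC, and the highest cells of both libraries were alike. The cDC2 had a log2 ratio of 0.74 and the cDC1 of -0.77 for Ccl4. In its list, 9 of 13 measured genes were higher and 4 lower after anti-PD-1, 3 and 2 of them past 1.5-fold, and the median log2 ratio was 0.23 in pDC and 0.10 in the other cells. Ccr9, a marker of the rule, is 1 of the 4 lower genes.

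Ccl3, a close relative of Ccl4, had 81 UMIs in anti-PD-1 pDC and 35 in isotype pDC, of which 1 anti-PD-1 cell held 58, and its log2 ratio was 1.51 with and 0.02 without the top cells. Ccl5, a T-cell attractant, had 103 UMIs in anti-PD-1 pDC and 10 in isotype pDC, from 5 of 43 anti-PD-1 and 4 of 60 isotype pDC, with a log2 ratio of 3.66 over all members. The anti-PD-1 members without Irf8 held 91 of the 103 anti-PD-1 UMIs, and without the members that lack Irf8 the log2 ratio of Ccl5 was 0.74. Cxcr3, the receptor for interferon-induced chemokines, had 10 UMIs in anti-PD-1 pDC and 26 in isotype pDC (log2 ratio -1.08, -2.29 to 0.02).

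In the lymphoid list, 5 of 15 measured genes were higher and 10 lower after anti-PD-1, 1 and 4 of them past 1.5-fold, and the median log2 ratio was -0.11 in pDC and 0.03 in the other cells. Over all 4047 genes, 57.5% were higher and 6.13% past 1.5-fold lower. Ly6d, a marker of the rule, is 1 of the 10 lower genes and 1 of the 4 past the fold. These counts are therefore set in part by the choice of cells. Dntt had 73 UMIs in anti-PD-1 pDC and 141 in isotype pDC (log2 ratio -0.65, -1.08 to -0.23), in 27 of 43 anti-PD-1 and 47 of 60 isotype pDC. Mzb1, an endoplasmic reticulum chaperone of pDC and antibody-forming B cells, had 35 UMIs in anti-PD-1 pDC and 94 in isotype pDC (log2 ratio -1.13, -1.73 to -0.55), in 16 of 43 anti-PD-1 and 39 of 60 isotype pDC. Blnk, the adaptor of the B cell receptor, had 311 CPM in anti-PD-1 pDC and 435 CPM in isotype pDC (log2 ratio -0.48, -0.82 to -0.15). Cd8a ran the other way, with 278 CPM in anti-PD-1 pDC and 197 CPM in isotype pDC (log2 ratio 0.50, 0.09 to 0.91), as it did in the other cells, at 1.53.

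The secretory list was flat, and 20 of 35 measured genes were higher and 15 lower after anti-PD-1, 1 and 1 of them past 1.5-fold, and the median log2 ratio was 0.05 in pDC and 0.08 in the other cells. Xbp1, the factor of the unfolded protein response, had a log2 ratio of 0.05, Hspa5, its chaperone target, 0.06, and Herpud1 0.18. In the survival list, 7 of 10 measured genes were higher and 3 lower after anti-PD-1, 3 and 0 of them past 1.5-fold, and the median log2 ratio was 0.35 in pDC and 0.12 in the other cells. The list's pDC median ranged from 0.17 to 0.56 over the alternatives to the processing. Mcl1, the survival protein that Pmaip1 binds, had 879.7 CPM in anti-PD-1 pDC and 710.4 CPM in isotype pDC (log2 ratio 0.31, 0.09 to 0.53), and Pim1, a survival kinase, 864 CPM in anti-PD-1 pDC and 603 CPM in isotype pDC (log2 ratio 0.52, 0.29 to 0.75). These ratios became 0.19 (-0.04 to 0.43) and 0.27 (0.02 to 0.52) without the members that lack Irf8. In the progenitor list, 8 of 10 measured genes were higher and 2 lower after anti-PD-1, 1 and 0 of them past 1.5-fold, and the median log2 ratio was 0.25 in pDC and 0.03 in the other cells.

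In the dissociation and stress list, 12 of 22 measured genes were higher and 10 lower after anti-PD-1, 4 and 4 of them past 1.5-fold, and the median log2 ratio was 0.10 in pDC and 0.05 in the other cells. Its members did not move together, since Atf3, Nr4a1 and Btg2 had log2 ratios of 1.09, 1.22 and 0.72 and Klf2, Ier3 and Jund of -1.41, -0.78 and -0.32. Fos, an immediate-early factor, had 451 CPM in anti-PD-1 pDC and 495 CPM in isotype pDC (log2 ratio -0.13, -0.42 to 0.15). The tumours of both libraries were digested warm with collagenase before sorting, a step known to induce such genes. The part of this step in the differences was not tested. With 1 library in each group it cannot be told apart from the antibody. In the hypoxia and glycolysis list, 14 of 18 measured genes were higher and 4 lower after anti-PD-1, 2 and 1 of them past 1.5-fold, and the median log2 ratio was 0.21 in pDC and -0.01 in the other cells.

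Few UMIs came from genes of the cell cycle. Mki67, the marker of cycling cells, had 7 UMIs in anti-PD-1 pDC and 1 in isotype pDC, each from 1 cell, and Top2a, a topoisomerase of dividing cells, had 7 UMIs in anti-PD-1 pDC and 4 in isotype pDC. T cells held 173 and 144 CPM of Mki67, against 17.8 and 2.07 CPM in pDC. Pclaf, a clamp-binding factor of DNA replication, had 30 UMIs, all in 1 anti-PD-1 cell. In the proliferation list, 5 of 5 measured genes were higher and 0 lower after anti-PD-1, 1 and 0 of them past 1.5-fold, and the median log2 ratio was 0.42 in pDC and 0.18 in the other cells. The 1 past the fold was Pclaf, and 57.5% of all 4047 genes were higher.

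Several of the largest differences came from 1 cell. All 33 UMIs of Arg1, the arginase of suppressive myeloid cells, lay in 1 anti-PD-1 pDC, against no UMI in the isotype pDC. The log2 ratio was 3.76 with the isotype pDC set at the floor of 3 UMIs over the group, and its lower interval bound was 3.38. That cell was the only anti-PD-1 member with Lyz2, at the rule's limit of 2 UMIs, and also held most of Il1a, so with Lyz2 at 0 the log2 ratio of Il1a was -0.39. Il1a, a cytokine of myeloid cells, had 29 of 34 anti-PD-1 UMIs in 1 cell, and Acod1, the itaconate enzyme of activated macrophages, 68 of 96. Clec4e, a myeloid lectin, came from 4 cells of each library, with 59 UMIs in anti-PD-1 pDC and 24 in isotype pDC (log2 ratio 1.60, 0.89 to 2.35). Most UMIs of both genes lay in the members that hold 10 or more S100a8 and S100a9 UMIs. Without those members, 3 of 142 UMIs of Acod1 and 22 of 83 of Clec4e remained over both libraries. The log2 ratios were then 0.24 and 3.12.

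On the isotype side, the heat-shock genes Hspa1b and Hspa1a had 167 of 199 and 99 of 122 UMIs in 1 cell each, and as near-identical copies they are uncertain. Without the top cell of each library, the log2 ratio of Hspa1b was -0.79 and that of Hspa1a 0.73. Wfdc17, a small secreted protein of myeloid cells, had 79 of 143. Its log2 ratio was -1.03, and 2.43 without the members that hold 10 or more S100a8 and S100a9 UMIs.

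Other genes with large differences had few UMIs per cell. Metrnl, a secreted relative of meteorin, had 29 UMIs in anti-PD-1 pDC and 4 in isotype pDC, in 11 of 43 anti-PD-1 and 4 of 60 isotype pDC (log2 ratio 3.16, 1.65 to 5.13), and Marcksl1, an actin-binding protein, 43 UMIs in anti-PD-1 pDC and 13 in isotype pDC, in 11 of 43 anti-PD-1 and 8 of 60 isotype pDC (log2 ratio 2.03, 1.10 to 3.05). Without the members that lack Irf8, the log2 ratio was 2.72 for Metrnl and 0.36 for Marcksl1. Wfs1, the endoplasmic reticulum protein wolframin, was lower, with 8 UMIs in anti-PD-1 pDC and 37 in isotype pDC, in 7 of 43 anti-PD-1 and 28 of 60 isotype pDC (log2 ratio -1.91, -3.22 to -0.78). N4bp3 had 12 UMIs in anti-PD-1 pDC and 41 in isotype pDC (log2 ratio -1.47, -2.54 to -0.52), Ap3m2, of an adaptor complex for vesicles, 7 UMIs in anti-PD-1 pDC and 28 in isotype pDC (log2 ratio -1.70, -3.14 to -0.47), Arhgap27os2 15 UMIs in anti-PD-1 pDC and 46 in isotype pDC (log2 ratio -1.32, -2.26 to -0.45) and D13Ertd608e 9 UMIs in anti-PD-1 pDC and 32 in isotype pDC (log2 ratio -1.53, -2.78 to -0.43).

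**Figure D5:**
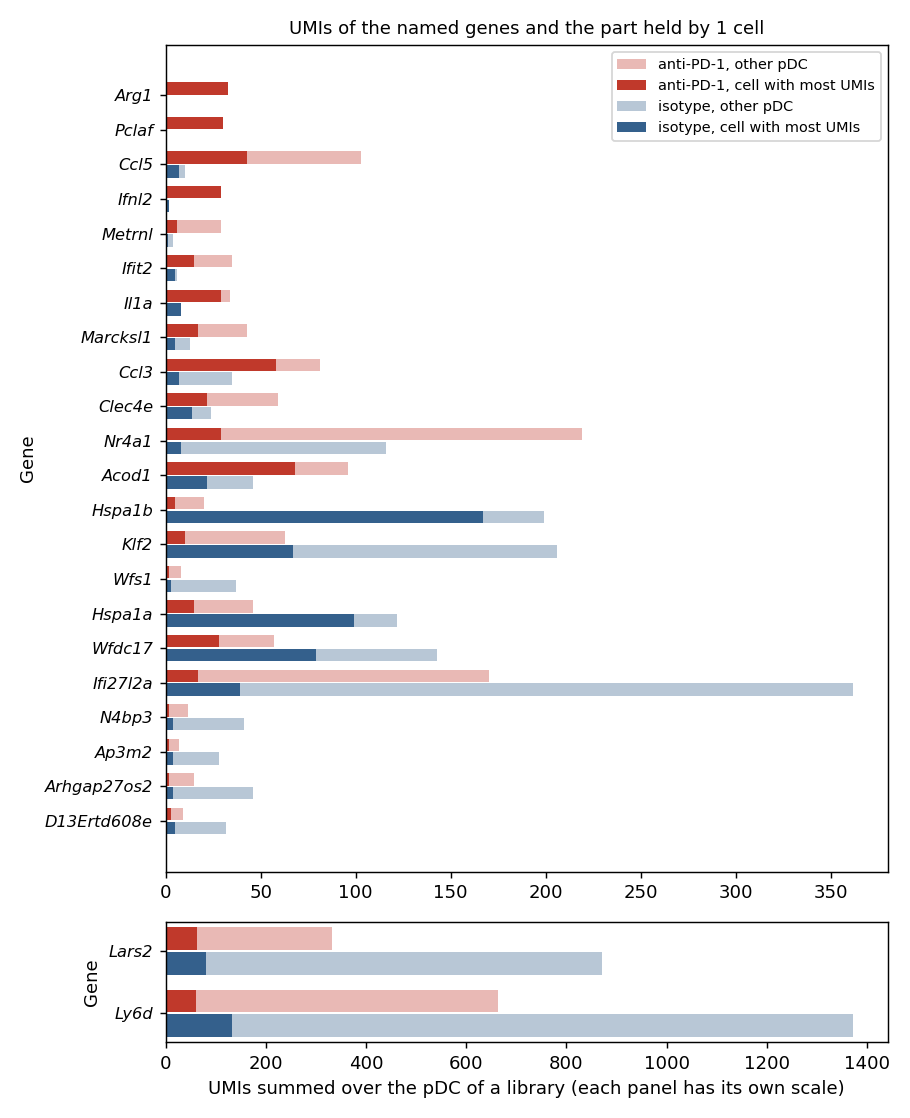
UMIs of the 24 genes named for the antibody comparison, summed over the anti-PD-1 pDC (upper red bar) and the isotype pDC (lower blue bar), with the dark part held by the 1 cell with most UMIs. Arg1, Pclaf and Ifnl2 after anti-PD-1 and Hspa1b after isotype are all or mostly dark, while Nr4a1, Ifi27l2a, Lars2 and Ly6d are spread over many cells.

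Markers of neutrophils, macrophages, T cells and NK cells were rarer in the pDC than in the other cells, and some were uneven between pDC. The 10 neutrophil markers summed to 1112 CPM in anti-PD-1 pDC and 2299 CPM in isotype pDC, against 10391 and 15174 CPM in the other cells. S100a9 had 230 UMIs in anti-PD-1 pDC and 587 in isotype pDC, of which 184 and 255 lay in 1 cell. The 14 monocyte and macrophage markers summed to 510.0 and 447 CPM in anti-PD-1 and isotype pDC, against 9423 and 8928 CPM in the other cells, and 7 of them were at 0, C1qa, C1qc and Adgre1 included. The rule for members limited Lyz2, and the other 13 markers summed to 505 and 439 CPM in anti-PD-1 and isotype pDC, against 3119 and 3147 CPM in the other cells.

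The 6 T cell markers that the rule did not set to 0 summed to 15.3 CPM in anti-PD-1 and 10.4 CPM in isotype pDC, against 137 and 95.2 CPM in the other cells. In pDC, B cell markers summed to 5.10 and 12.4 CPM, against 18.4 and 17.8 CPM in the other cells. NK cell markers summed to 7.65 and 4.14 CPM in pDC, against 354 and 174 CPM in the other cells. Red cell, platelet, basophil and mast cell markers had no UMI. Not every marker sum was lower in pDC. The cDC1 markers summed to 398 and 375 CPM in anti-PD-1 and isotype pDC, against 327 and 352 CPM in the other cells. The sum of endothelial and stromal markers was also higher, as given above. Plasma cell markers summed to 102 and 201 CPM in pDC, against 338 and 203 CPM in the other cells. The sums of cDC2, migratory dendritic cell and hepatocyte markers were lower in pDC in both libraries. Xcr1, which defines cDC1, was at 0, while Clec9a, a cDC1 lectin that pDC also express in mice, had 112 CPM in anti-PD-1 pDC and 155 CPM in isotype pDC. The part of such RNA in the differences between the antibodies was not tested beyond leaving out the cells that carry it.

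Among the pDC themselves, the widest variation was in genes of single cells and of chemokine output. With each cell thinned to 2000 UMIs, the variance over mean had a median of 1.02 over 4047 genes, near the 1 of random sampling, and exceeded 2 for 121 genes. Ccl4 reached 20.4 and was found in 62.8% of the thinned anti-PD-1 cells and 55% of the thinned isotype cells. Cd74 reached 11.8 and Ly6d 8.79. S100a9, S100a8, Cxcl2, Il1b and Ifitm1 reached 34.8, 19.1, 16.9, 10.9 and 11, and 1 cell of each library held a large part of their UMIs. Gm42418 reached 34.9, and Hspa1b and Hspa1a 16.1 and 10.9.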

How the data were processed

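The authors deposited raw UMI counts per gene and barcode for each library, made with Cell Ranger and aligned to mm10. The file headers name Cell Ranger 5.0.1, while the submitters' processing notes name 2.1.1 and mm10. The chemistry was 10x 3' v2, per the labels' protocols. The files held 10149 anti-PD-1 and 9683 isotype barcodes with 32285 features, and 72148493 and 67520433 UMIs.

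UMIs were summed over the pDC of each library and over gated cDC1, cDC2, B cells, T cells, macrophages and neutrophils, and given as CPM of each sum. The gates were Xcr1 with Clec9a (cDC1), Cd209a with H2-Aa (cDC2), Cd79a with a further B cell gene (B), 2 of the 3 Cd3 genes (T), C1qa, C1qb and Lyz2 (macrophage), and S100a8, S100a9 and Csf3r (neutrophil), without Siglech above 1 UMI. The log2 ratios and their exact conditional binomial intervals come from the sums, and shares have exact Clopper-Pearson intervals. All intervals cover counting error only, and no test between the antibodies is possible with 1 library in each group. Genes needed 30 UMIs over the pDC of both libraries, and a gene at 0 was set to a floor of 3 counts over the group. Named for the antibody comparison were the 12 highest and 12 lowest genes by the interval bound nearest to 0, without mitochondrial, ribosomal protein, sex-linked, immunoglobulin and model genes and markers of other cell types. Named for identity were the 20 genes with the highest ratio over other cells, and for variation the 10 with the highest variance over mean. List members may be named too, and the widely detected genes follow a rule added after the values were seen. The members and lists were chosen with earlier results of these data known. The automatic cut of the doublet caller marked 1 and 0 barcodes and did not work, so no cell was removed and only scores are given. Gene positions are from GENCODE vM21 (GRCm38, the same assembly as mm10). Tools were scipy 1.17.1, numpy 2.4.6 and pandas 2.3.3 under Python 3.11.15, scanpy 1.11.5 for doublet scores, and edgeR 4.0.16 for TMM factors only. The calculations were tested on simulated data. Alternatives changed the rule for members, the UMI minimum, the depth and the scaling.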

Additional observations from a re-analysis of the deposited data

How the results depend on the processing

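Of the values for pDC shares, counts and list medians over the alternatives, 377 stayed near the main value and 8 moved. Of those for single genes, 531 stayed near it, 43 moved and 6 reversed. Near means within the main counting interval, for a list within the median bounds of its genes, and for a count of genes within 1.5-fold. The list bounds lay on both sides of 0 for most lists, so a median that changed sign could still count as near. The interferon-gamma median, for example, ranged from -0.14 to 0.32. The pDC share stayed lower after anti-PD-1 in all 11 alternatives run for it, with differences of -0.237 to -0.176 points, and the interval excluded 0 in 4 of them (a minimum of UMIs for each cell, at least 2 of the 4 markers, without members above 2 times the median UMIs, and without members lacking Irf8). Thinning each cell to 2000 UMIs gave 930 genes past 1.5-fold higher and 730 lower, a rule-marker median of -0.60, and Pclaf at -1.10, since its UMIs were lost and the value is set by the floor. A minimum of 10 UMIs over the pDC, which takes in more genes of low count, gave 1276 higher and 771 lower and a proliferation median of 0.91, and a minimum of 100 UMIs gave 61 and 44. The other reversals were Ccl3 at -0.32 and Il1a at -0.39 with Lyz2 at 0, Ifit2 at -0.11 without members lacking Irf8, Wfdc17 at 2.43 without members holding 10 or more S100a8 and S100a9 UMIs, and Hspa1a at 0.73 without the top cell of each library. The cause of these was not tested beyond the cells left out. Without the members that lack Irf8, an alternative chosen after seeing the data like the S100a8 and S100a9 one, Ccl5 was at 0.74, Marcksl1 at 0.36, Nr4a1 at 0.82, Ly6d at -0.58 and Vim at 0.54. Over all 15 alternatives for single genes, Atf3 ranged from 0.96 to 1.36, Klf2 from -1.81 to -1.01, Lars2 from -1.26 to -0.79, Pmaip1 from 0.86 to 1.09 and Ifi27l2a from -0.99 to -0.64. No paired analysis was possible because each group has 1 library, and for the same reason no library could be left out. Depth limits the rare genes, since 43 and 60 cells leave most sensing and cytokine genes under 1 UMI a cell.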
